A study of Mus musculus with 25 samples.

Results

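Caspases, the cytochrome c receptor Apaf1, the mitochondrial flavoprotein Aifm1 and the death-associated kinase Dapk2 were examined in growing mouse myoblasts that lacked MyoD, lacked p53 or lacked neither. The genes were Casp1, Casp2, Casp6, Casp8, Casp9, Apaf1, Aifm1 and Dapk2, which are 8 of 15964 genes named on the chips. Every probe set whose single annotated symbol was one of them was taken, which gave 13 of 36701 non-control probe sets, 12 on the U74Av2 chip and 1 on U74Bv2. Dapk2 was lower in both knockouts, Apaf1 was lower and Aifm1 higher in p53-/- cells, and no caspase probe set was called in any comparison.

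Caspases are cysteine proteases that cleave their targets after aspartate and that wait in the cell as inactive precursors. In the intrinsic death pathway cytochrome c released from mitochondria binds Apaf1, which assembles into the apoptosome and activates caspase-9, and caspase-9 in turn activates executioner caspases. Caspase-8 is started by death receptors, caspase-2 by the PIDDosome and caspase-1 by inflammasomes, and Apaf1 is a known target of p53. In skeletal muscle, caspase activity is known both from cell death and from the differentiation of myoblasts.

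The cells were progeny of satellite cells, the stem cells of adult muscle, kept as dividing myoblasts on plates coated with collagen, in a Ham medium that held 4 ng/ml bFGF and 20% serum of fetal calves. Wild type, MyoD-/- and p53-/- cultures had 3 RNA samples each, lettered A, B and C, and the labels gave no age, sex or strain for the knockouts and no relation of the letters to mice or cultures. All 9 samples were hybridised to U74Av2, while U74Bv2 had 3 wild-type arrays, 3 MyoD-/- arrays and p53-/- A alone. The labels put purity after preplating and passage above 98%, judged by desmin, Myf5 and MyoD in wild type but by Myf5 and c-met in the knockouts. RNA extraction was labelled TriZol in wild type and MyoD-/- and Trizol x2 in p53-/-, so that extraction and the p53 genotype cannot be told apart.

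The labels were checked on the arrays. Myod1 gave signals of 37440, 40169 and 45187 in wild type, 5352, 4024 and 5152 in MyoD-/-, and 23450, 24450 and 18504 in p53-/-. The sources used here do not say whether its probes lie in the deleted stretch. Trp53 was not analysed here, but its targets Cdkn1a, Mdm2 and Ccng1 all fell in p53-/- against wild type, with log2 fold changes of -2.40, -2.05 and -3.01. Mdm2 was read on U74Cv2, where the wild-type arrays were of a chip lot that no knockout array of recorded lot shared, so lot and genotype cannot be told apart against wild type there. Of the 5 myoblast markers (Des, Myod1, Myf5, Cdh15, Met), 4 fell in MyoD-/- and 1, Myf5, rose. Met, the c-met by which purity of the knockouts was judged, was among the 4, with a log2 fold change of -1.41. In p53-/- 3 fell (Des, Myod1, Cdh15), Myf5 rose and Met was not called. Median signals of the U74Av2 arrays were 463.9 to 565.4, and 3' over 5' signal of Gapdh came to 0.786 to 0.879. Sample p53-/- C had the lowest median and the highest ratio.

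A probe set was tested when at least 3 arrays held it above the 40th percentile of the array, and a call was an adjusted p under 0.05 in limma over all tested probe sets of a comparison. Fold changes are differences of log2(signal + offset), which understate the change of dim genes, with limma standard errors or 95% intervals, and mean signals have standard deviations over 3 arrays. In MyoD-/- against wild type, 1 of 12 tested member probe sets was called, lower, where 10.6% of all probe sets were called (4.98% higher and 5.66% lower). In p53-/- against wild type, 3 of 11 were called, 1 higher and 2 lower, where 10.1% of all probe sets were called (4.79% higher and 5.35% lower). In MyoD-/- against p53-/-, 2 of 11 were called, 1 in each direction, where 13% of all probe sets were called (6.2% higher and 6.77% lower). The arrays of the genotypes compared did not overlap at 3, 4 and 3 member probe sets in this order, beside 29%, 30.9% and 30.6% of all tested probe sets. The median log2 fold changes of the member probe sets were -0.13, -0.02 and -0.13, beside 0, -0.02 and 0.01 for all probe sets tested.

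**Figure D1:**
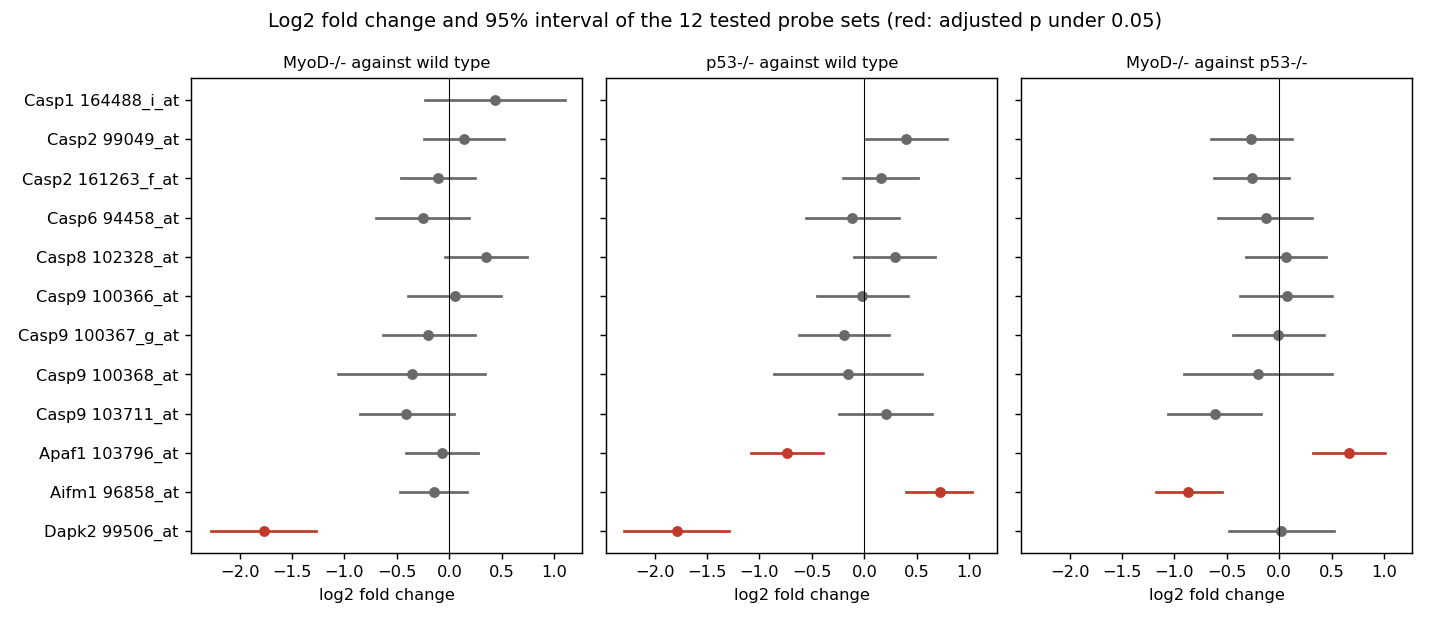
Log2 fold change (x axis) of each tested caspase, Apaf1, Aifm1 and Dapk2 probe set (rows) in the 3 comparisons, with 95% limma intervals as lines and calls in red. The calls are Dapk2 in MyoD-/-, Apaf1, Aifm1 and Dapk2 in p53-/-, and Apaf1 and Aifm1 between the knockouts, while the intervals of nearly all caspase probe sets cross 0.

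The 250 bases upstream of the RefSeq start of the 3 genes with calls are given here because these are the genes whose messages differed between genotypes. Build GRCm38.p6 places them at chr9:66157976-66158225 on the plus strand for Dapk2, chr10:91082744-91082993 on the minus strand for Apaf1 and chrX:48513564-48513813 on the minus strand for Aifm1. Each is written 5' to 3' along the strand of the gene. Capitals mark E-boxes, the CANNTG sequence that MyoD and other bHLH factors bind, of which CAGCTG is one form.
Dapk2: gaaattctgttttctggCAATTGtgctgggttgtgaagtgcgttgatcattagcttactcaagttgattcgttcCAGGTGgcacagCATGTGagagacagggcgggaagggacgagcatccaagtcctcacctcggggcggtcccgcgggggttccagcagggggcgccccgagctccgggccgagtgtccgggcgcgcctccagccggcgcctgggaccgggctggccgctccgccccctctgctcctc
Apaf1: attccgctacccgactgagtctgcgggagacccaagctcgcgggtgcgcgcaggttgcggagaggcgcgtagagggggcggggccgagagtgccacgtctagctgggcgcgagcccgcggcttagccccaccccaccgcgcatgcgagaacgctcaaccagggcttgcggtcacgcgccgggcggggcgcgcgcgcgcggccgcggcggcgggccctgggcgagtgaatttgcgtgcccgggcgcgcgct
Aifm1: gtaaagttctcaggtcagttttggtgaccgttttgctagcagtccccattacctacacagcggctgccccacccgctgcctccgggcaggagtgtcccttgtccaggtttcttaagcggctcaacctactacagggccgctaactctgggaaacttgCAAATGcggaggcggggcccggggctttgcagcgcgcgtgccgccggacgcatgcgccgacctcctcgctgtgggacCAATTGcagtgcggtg
The Dapk2 window held 3 CANNTG matches, which begin at -233, -176 and -164 from the start. The Aifm1 window held 2, at -93 and -16, and the Apaf1 window held 0. Among the 8 members' windows, 6 held a CANNTG, where 66.2% of 32851 mouse promoter windows of that length did. Neither CAGCTG, found in 13% of all windows, nor the p53 half-site, found in 7.13% on either strand, occurred in any of the 8 windows. A match is only a match of letters, and sites outside these windows were not searched.

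Apaf1 was lower in p53-/- cells than in either of the other genotypes. Its probe set 103796_at gave signals of 1269, 1192 and 1562 in wild-type A, B and C. MyoD-/- gave 1438, 1090 and 1291, and p53-/- gave 801, 764 and 755. Every p53-/- array was thus below every other array, and the p53-/- signals lay close together at 774 ± 24.5 (SD, n = 3), beside 1341 ± 195 in wild type and 1273 ± 175 in MyoD-/-. Apaf1 fell by 0.74 ± 0.16 on the log2 scale in p53-/- against wild type (95% interval -1.08 to -0.39, limma adjusted p = 0.0144), a mean signal 1.73-fold lower. The adjusted p was 0.009 to 0.0502 over the alternatives, and the call was lost at 0.0502 without wild type C, the highest array, while it was kept without p53-/- C, the sample with the lowest median signal. Against wild type, MyoD-/- differed by -0.07 (interval -0.41 to 0.27, adjusted p = 0.844). The difference between the knockouts was itself called, with MyoD-/- higher by 0.66 ± 0.16 (adjusted p = 0.0184). That call was lost with the scan day as a block and without MyoD-/- A, MyoD-/- C or p53-/- C, where the adjusted p reached at most 0.055.

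Aifm1 encodes apoptosis-inducing factor, an oxidoreductase of the mitochondrial intermembrane space that supports the respiratory chain and that can move to the nucleus during cell death. It was higher in p53-/- cells. Probe set 96858_at gave 5011, 6284 and 5910 in wild type, 4967, 4661 and 5859 in MyoD-/-, and 8288, 10724 and 9390 in p53-/-. The lowest p53-/- array was above the highest array of either other genotype, whereas wild type and MyoD-/- overlapped. Mean signals were 5735 ± 654, 5162 ± 623 and 9467 ± 1220 (SD, n = 3 each). Aifm1 rose in p53-/- by 0.72 ± 0.14 on the log2 scale against wild type (interval 0.40 to 1.03, limma adjusted p = 0.0111), a mean signal 1.65-fold higher. MyoD-/- differed from wild type by -0.15 (interval -0.47 to 0.17, adjusted p = 0.598) and was lower than p53-/- by a log2 difference of -0.87 ± 0.14 (adjusted p = 0.00333). Both calls held under all 21 alternatives, with adjusted p of at most 0.0474 and 0.0163.

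The Aifm1 gene lies on the X chromosome. Xist, the RNA of the inactive X, varied within wild type and p53-/- and was high on every MyoD-/- array. Xist signals were 111, 6495 and 39.8 in wild type, 2894, 3859 and 4514 in MyoD-/-, and 4428, 25.7 and 21.1 in p53-/-. Xist was chosen after its values were seen. Aifm1 signal on p53-/- A, with high Xist, and on p53-/- B and C, with low Xist, exceeded every wild-type and MyoD-/- array. Low Xist did not make p53-/- B and C alike in genes of the Y chromosome. Eif2s3y and Uty gave 582 and 146 on p53-/- B but 5.64 and 26 on p53-/- C, while Kdm5d on U74Av2 was dim on both (32.5 and 26.4). These genes were also chosen after their values were seen. The part of Xist state or sex in the Aifm1 difference was not tested.

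Dapk2, a serine/threonine kinase regulated by calcium and calmodulin that is known from cell death and autophagy, had the largest difference among the members. Probe set 99506_at gave 4817, 4307 and 4471 in wild type. MyoD-/- gave 1300, 1189 and 1357, and p53-/- gave 1060, 1986 and 947. The wild-type arrays lay far above all 6 knockout arrays, and the knockouts overlapped, with p53-/- B the highest of them. Mean signals were 4532 ± 261 in wild type, 1282 ± 85.6 in MyoD-/- cells and 1331 ± 570 in p53-/-. Dapk2 fell by 1.77 ± 0.23 in log2 units in MyoD-/- (interval -2.27 to -1.27, limma adjusted p = 0.000764), a mean signal 3.54-fold lower. In p53-/- it fell by 1.79 ± 0.23 (interval -2.29 to -1.29, adjusted p = 0.00145), 3.4-fold lower. Both comparisons use the same wild-type arrays. Between the knockouts the log2 difference was 0.02 (interval -0.48 to 0.52, adjusted p = 0.974). Both calls held under all 21 alternatives, with log2 fold changes of -1.82 to -1.72 in MyoD-/- and -2.1 to -1.59 in p53-/-.

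**Figure D2:**
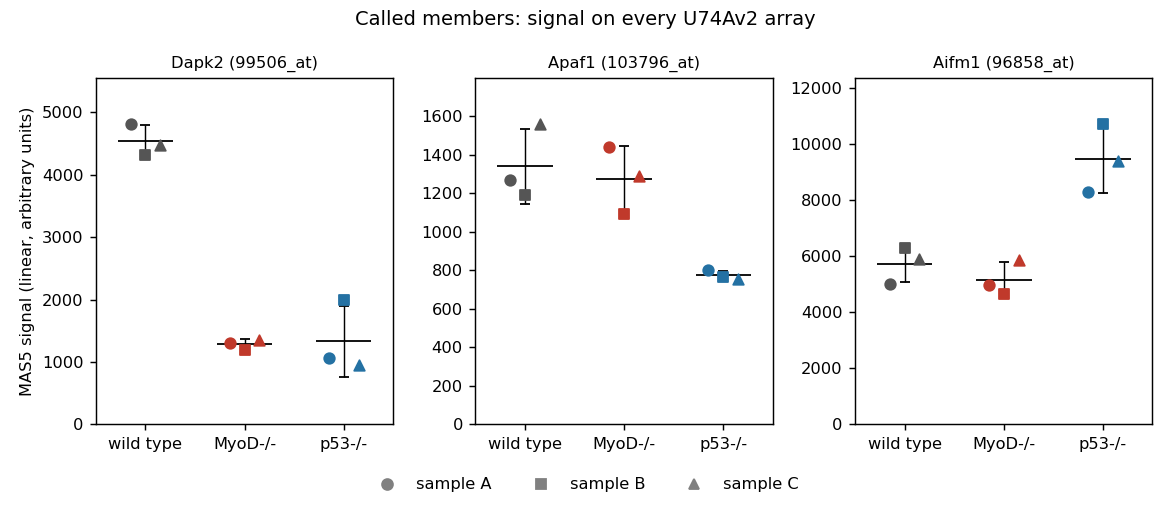
MAS5 signal on a linear scale (y axis, from 0) of Dapk2, Apaf1 and Aifm1 on each U74Av2 array by genotype, with lines for the mean and standard deviation of 3 arrays. Dapk2 is high in the wild type alone at 4307 to 4817, Apaf1 is low in p53-/- at 755 to 801, and Aifm1 is high in p53-/- at 8288 to 10724.

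Most markers of terminal muscle differentiation fell in both knockouts, as Dapk2 did. Of the 8 markers (Myog, Acta1, Myh3, Ckm, Tnnt3, Tnnc1, Ryr1, Actn3), 7 fell in MyoD-/- and 6 fell in p53-/-, and none rose in either. Knockout signals of Ryr1 and Myh3, at most 224 and 150, were below the 40th percentile of every U74Av2 array, at least 231.5. Both thus passed the filter through the wild-type arrays alone, which favoured a lower call. Their summed signal was 46055, 56723 and 29867 in wild type, 2443, 4001 and 3612 in MyoD-/-, and 6693, 11911 and 3966 in p53-/-. Sample p53-/- B was the highest p53-/- sample both in this sum and in Dapk2. Within wild type and within MyoD-/- the order differed. There sample B was the highest in the sum and the lowest in Dapk2, at 4307 in wild type and 1189 in MyoD-/-. The part of differentiating cells in the Dapk2 difference was not tested, and in bulk RNA fewer cells of a type and less RNA per cell cannot be told apart.

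The genes nearest to each called member in pattern were found by the root mean square difference of log2 values, each centred on its mean over the 9 arrays, among 7090 probe sets of U74Av2. Nearest to Dapk2 were Mylpf, a fast-muscle myosin light chain, at 0.21, Mstn, the secreted growth regulator myostatin, at 0.24, and Ank1, an ankyrin, at 0.29, beside 0.88 for the spread of Dapk2 itself. Nearest to Apaf1 were Deaf1 and Dnase1l1 at 0.11 and Etfb at 0.12, beside 0.36 for Apaf1. Nearest to Aifm1 were Ints3 at 0.11, Psmb6 at 0.12 and Pithd1 at 0.13, beside 0.4 for Aifm1. The 3 neighbours of Dapk2 differed from wild type by -1.95, -1.46 and -1.77 in MyoD-/- and by -1.66, -1.81 and -1.73 in p53-/-, a likeness that the choice of nearest genes fixes.

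**Figure D3:**
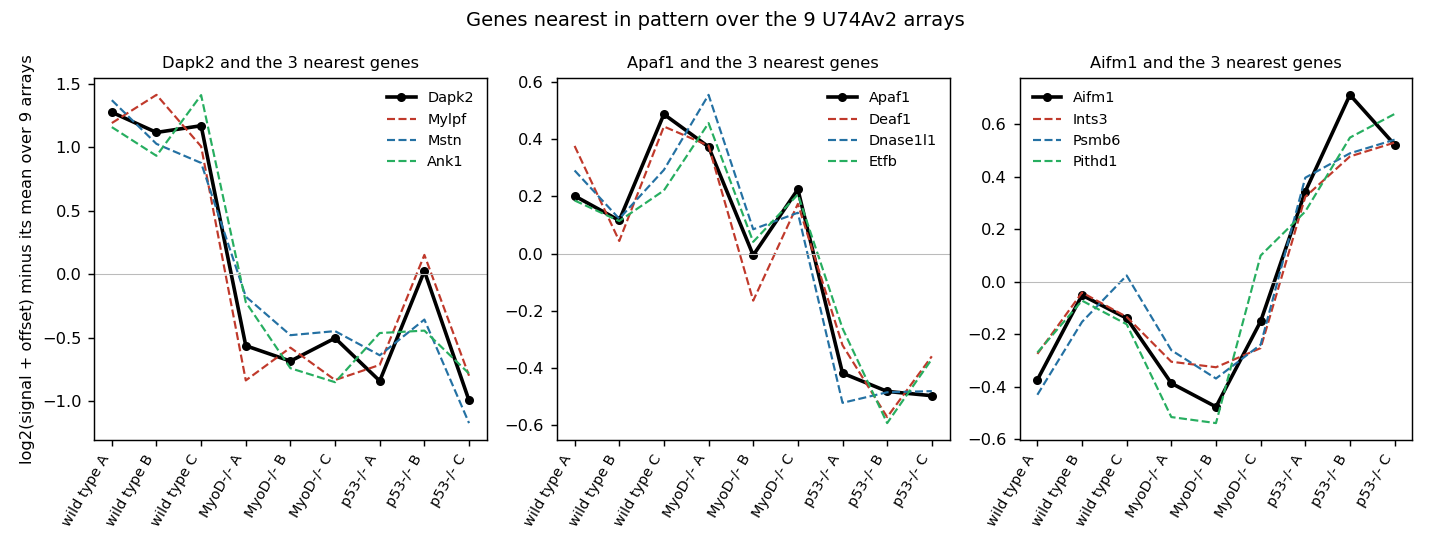
Centred log2 signal (y axis) over the 9 U74Av2 arrays (x axis) for Dapk2, Apaf1 and Aifm1 in black, each with its 3 nearest genes as dashed lines. Dapk2 and its neighbours step down from the wild-type arrays to the knockout arrays, Apaf1 and its neighbours step down at the p53-/- arrays, and Aifm1 and its neighbours step up there.

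Casp9, the caspase that the apoptosome activates, had 4 probe sets on U74Av2, and none of them was called. Probe set 103711_at gave 522, 535 and 618 in wild type, 513, 310 and 409 in MyoD-/-, and 685, 553 and 734 in p53-/-. All MyoD-/- arrays were below all p53-/- and all wild-type arrays, while the latter groups overlapped. The log2 difference between MyoD-/- and wild type was -0.41 (interval -0.85 to 0.04, limma adjusted p = 0.262). Between MyoD-/- and p53-/- it was -0.61 (interval -1.06 to -0.17, adjusted p = 0.0741), which became a call in 5 of 21 alternatives, with adjusted p between 0.0429 and 0.227 over all of them. The other 3 Casp9 probe sets did not show this order. Between the knockouts their log2 differences were 0.07 for 100366_at (adjusted p = 0.885), -0.01 for 100367_g_at (0.989) and -0.20 for 100368_at (0.757).

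Their arrays overlapped in every comparison. Probe set 100366_at gave 1154, 886 and 924 in wild type, 1260, 940 and 888 in MyoD-/-, and 1062, 1136 and 754 in p53-/-. Probe set 100367_g_at gave 851, 856 and 1210 in wild type, 1031, 797 and 690 in MyoD-/-, and 960, 810 and 743 in p53-/-. Probe set 100368_at gave 356, 386 and 589 in wild type, 481, 238 and 289 in MyoD-/-, and 449, 519 and 233 in p53-/-. The last was the least even of the 4 between arrays of a genotype, with coefficients of variation of 28.5%, 38.2% and 37.3%.

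Casp6, an executioner caspase that cleaves lamin A, gave 429, 505 and 440 in wild type, 410, 284 and 442 in MyoD-/-, and 406, 386 and 459 in p53-/-. The 3 genotypes overlapped. Its log2 differences from wild type were -0.25 in MyoD-/- (interval -0.70 to 0.19, limma adjusted p = 0.516) and -0.12 in p53-/- (interval -0.56 to 0.33, adjusted p = 0.786).

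Casp2, the caspase of the PIDDosome, gave 2731, 2613 and 2085 in wild type, 3369, 2164 and 2740 in MyoD-/-, and 3449, 3382 and 3019 in p53-/- at probe set 99049_at. All p53-/- arrays were above all wild-type arrays. The log2 difference was 0.40 (interval 0.02 to 0.79) and was not called (limma adjusted p = 0.175). The second probe set, 161263_f_at, whose suffix marks probes that may read related sequences, gave 723, 822 and 956 in wild type, 867, 700 and 736 in MyoD-/-, and 936, 1013 and 850 in p53-/-. There wild type and p53-/- overlapped, with a log2 difference of 0.16 (interval -0.20 to 0.51, adjusted p = 0.608). In MyoD-/- the log2 differences from wild type at these probe sets were 0.14 and -0.11, with adjusted p of 0.702 and 0.755.

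Casp8, the caspase recruited to death receptors through Fadd, gave 557, 586 and 451 in wild type, 712, 710 and 652 in MyoD-/-, and 782, 659 and 554 in p53-/-. The MyoD-/- arrays were all above wild type, while p53-/- C lay among the wild-type arrays. The log2 differences from wild type were 0.35 in MyoD-/- (interval -0.04 to 0.74, limma adjusted p = 0.267) and 0.29 in p53-/- (interval -0.10 to 0.67, adjusted p = 0.35), and neither was called.

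Casp1, the caspase that matures interleukin-1 beta and interleukin-18, was dim. Its U74Av2 probe set 102064_at was above the 40th percentile on 0 of 9 arrays and was not tested. It gave 58.4, 49.7 and 31.1 in wild type, 79.7, 112 and 134 in MyoD-/-, and 55.1, 88.2 and 37.8 in p53-/-, values below the offset of 67.19 on 5 of 9 arrays. Without the filter its log2 difference between MyoD-/- and wild type was 0.63, with an adjusted p of 0.106 in limma. The U74Bv2 probe set 164488_i_at passed the filter on 4 of 7 arrays and gave 194, 347 and 479 in wild type, 589, 433 and 463 in MyoD-/-, and 633 in the lone p53-/- array. Its wild-type and MyoD-/- arrays overlapped, with a log2 difference of 0.44 (interval -0.23 to 1.10, adjusted p = 0.43). On the day when both genotypes were scanned, wild type gave 347 and 479 and MyoD-/- 589, and on the day shared by the knockouts MyoD-/- gave 433 and 463 and p53-/- 633. The lone p53-/- array differed from wild type by 0.72 (interval -0.21 to 1.66, adjusted p = 0.365), where 3.67% of all probe sets were called, and it was assumed to vary like the other groups.

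**Figure D4:**
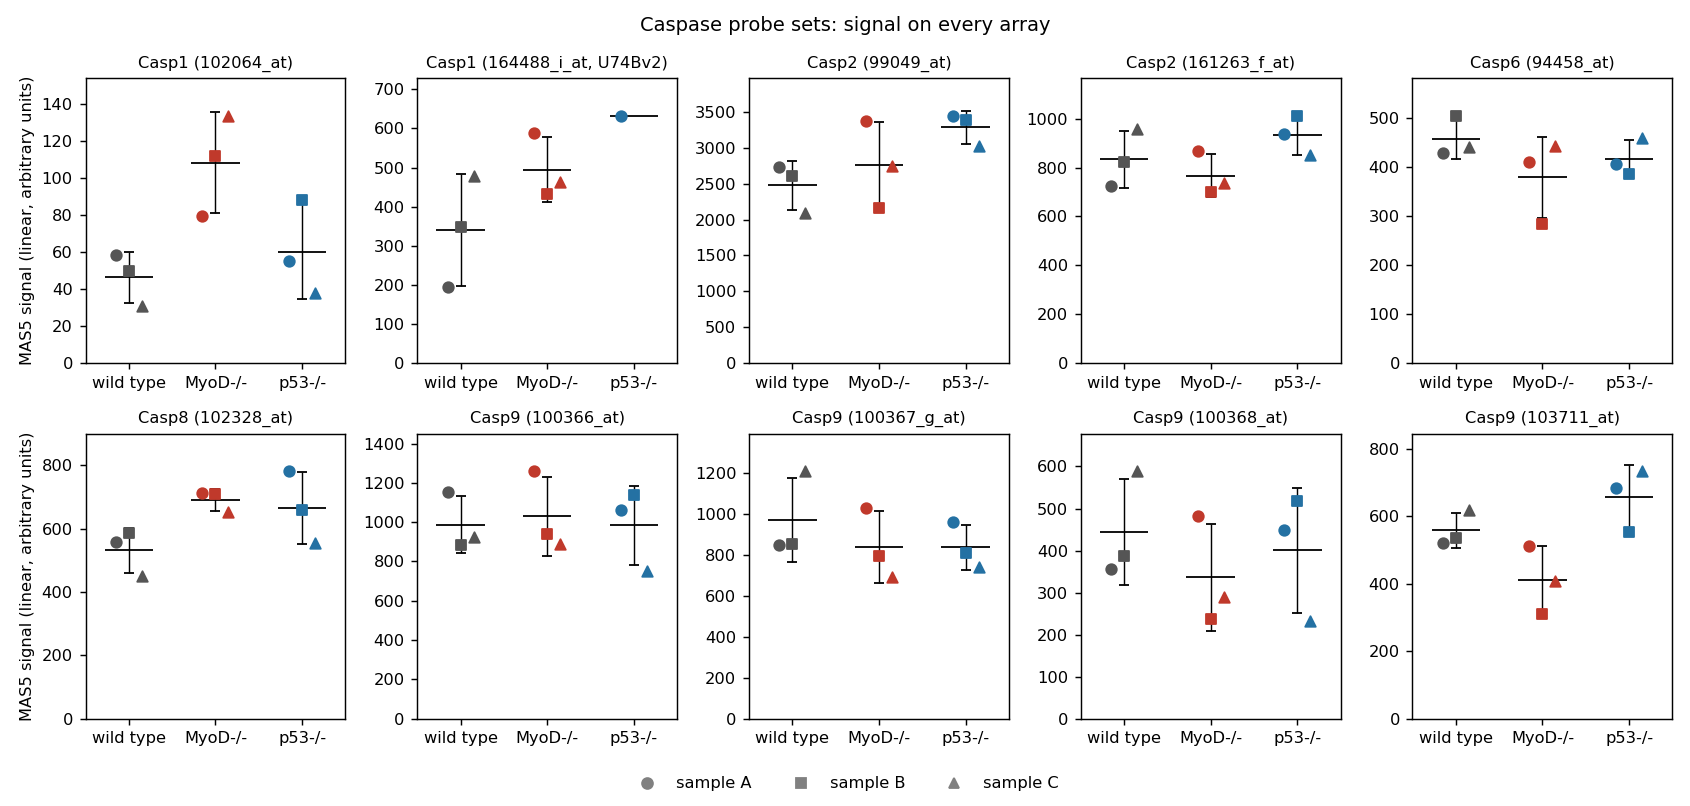
MAS5 signal on a linear scale (y axes, each from 0) of the 10 caspase probe sets on every array by genotype, with lines for the mean and standard deviation of 3 arrays. All 3 genotypes overlap at Casp6, at 161263_f_at of Casp2 and at 3 of the 4 Casp9 probe sets, and Casp1 on U74Bv2 has 1 p53-/- array.

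Over the caspase, Apaf1 and Aifm1 probe sets that were not called, the 95% intervals of the log2 difference from wild type ran from -1.06 to 1.10 in MyoD-/-. Over those not called in p53-/- on U74Av2 they ran from -0.86 to 0.79, and for Casp1 on U74Bv2, with its lone p53-/- array, from -0.21 to 1.66. The arrays thus leave room for differences of that size, and a missed threshold does not show equal levels.

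The genes around these members were taken from lists written from general knowledge. Each gene was read at the tested probe set that ranked highest on average over the arrays, and by that measure 13% of genes were called in MyoD-/- against wild type, 12.6% in p53-/- against wild type and 16.1% between the knockouts. Among partners of the apoptosome and inhibitors of caspases, 0 of 8 genes were called in MyoD-/-, and in p53-/- 2 of 8 rose and 0 fell. Birc5, which encodes survivin, an inhibitor-of-apoptosis family protein of dividing cells, had signals of 2035 ± 327 in wild type, 3455 ± 1017 in MyoD-/- cells and 4768 ± 371 in p53-/-. It rose in p53-/- by 1.21 ± 0.21 on the log2 scale (limma adjusted p = 0.00623), and its MyoD-/- value was 0.71 (adjusted p = 0.0608). Aven, an inhibitor of Apaf1 self-association, rose in p53-/- by 0.92 ± 0.24 (adjusted p = 0.0347), a call lost in 9 of 21 alternatives, where the adjusted p reached at most 0.111. It was read on U74Cv2, where chip lot and genotype cannot be told apart against wild type. Among the 9 alternatives that lost the Aven call were the fits without wild type B, without wild type C and without any 1 of the p53-/- samples. Cycs, the cytochrome c gene, was not called, with log2 differences of -0.17 in MyoD-/- and 0.27 in p53-/-. Nor was Xiap, which blocks caspases directly, called in either knockout. Between the knockouts 0 of 8 were called. The median log2 fold change of the list was -0.12 in MyoD-/- and -0.04 in p53-/-, beside 0 and -0.01 for all genes tested.

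In the death receptor list 1 of 9 tested genes rose and 0 fell in MyoD-/-, and 0 rose and 2 of 8 fell in p53-/-. Between the knockouts 0 of 8 were called, and the list's median was 0.22 in MyoD-/- and -0.03 in p53-/-. Both genes that fell belong to the PIDDosome, the complex that activates caspase-2. Pidd1, its scaffold, had signals of 14133 ± 1362 in wild type, 10356 ± 2179 in MyoD-/- cells and 7626 ± 755 in p53-/-, and fell by 0.88 ± 0.17 on the log2 scale in p53-/- (limma adjusted p = 0.00851). The call was kept in all 21 alternatives, but none of them took the chip lot into account, and Pidd1 was read on U74Cv2, where lot and genotype cannot be told apart against wild type. Cradd, the adaptor between Pidd1 and caspase-2, went from 735 ± 39.5 in wild type to 438 ± 28.1 in p53-/-, and fell by 0.67 ± 0.16 (adjusted p = 0.0287), a call lost in 9 of 21 alternatives with adjusted p of up to 0.0922, among them all 6 that left out a wild-type or a p53-/- sample. In MyoD-/- the log2 differences of Pidd1 and Cradd were -0.46 and -0.22, with adjusted p of 0.114 and 0.471. The gene that rose in MyoD-/- was Cflar, an inhibitor of caspase-8 activation, by 1.04 ± 0.17 at its U74Bv2 probe set (signals 3210 ± 143 and 6844 ± 1546, adjusted p = 0.00577). With the scan day as a block this became 0.67 (adjusted p = 0.105). Its U74Cv2 probe set gave 1169 ± 296 in wild type and 1019 ± 395 in MyoD-/-, so the probe sets of Cflar disagreed, with the same limit of chip lot on U74Cv2. They differed in p53-/- too. The U74Cv2 probe set gave 1997 ± 494 there, 0.72 above wild type on the log2 scale and not called (limma adjusted p = 0.179). On U74Bv2 the lone p53-/- array gave 2627, below the wild-type mean.

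The inflammasome and interleukin-1 list had 5 tested genes in MyoD-/- and 4 in p53-/-, of which 1 fell in each and 0 rose, with medians of 0.05 and 0.01, and 0 of 4 were called between the knockouts. This was Il18, a cytokine that caspase-1 cleaves, with signals of 342 ± 27.6 in wild type, 112 ± 73.3 in MyoD-/- cells and 42.5 ± 4.57 in p53-/-, the last below the offset. The knockout signals of Il18, at most 193, were below the 40th percentile of every U74Av2 array, at least 231.5. Il18 thus passed the filter through the wild-type arrays alone, which favoured a lower call. The size of its p53-/- difference depends on the offset and ran from -3.01 without it to -1.77 over 20 alternatives, all with the call. It fell by 1.90 ± 0.35 on the log2 scale in p53-/- (limma adjusted p = 0.00745) and fell by 1.27 ± 0.35 in MyoD-/- (adjusted p = 0.0423), and the MyoD-/- call was lost in 12 of 20 alternatives, with adjusted p of up to 0.133, among them those without MyoD-/- A, MyoD-/- B, p53-/- A or any 1 wild-type sample. Macrophages and other leukocytes are rich in caspase-1, and 5 of their 12 markers were tested. In MyoD-/- Cd14 rose and Laptm5 fell, and in p53-/- 0 of 5 were called. Laptm5 was read on U74Cv2, where chip lot and genotype cannot be told apart against wild type. Its probe set may detect related sequences. The summed signal of all 12, tested or not, ranged over 13918 to 16445 in wild type. It was 12708 to 14115 in MyoD-/- cells and 11358 to 14827 in p53-/-. Laptm5 alone had mean signals of 10137 in wild type and 4655 in MyoD-/-, and Cd14 had 1506 and 5921, so opposite changes offset each other in the sum. Ptprc, Adgre1, Itgam, Lyz2, Tyrobp, Fcer1g and Coro1a did not pass the filter. The part of leukocytes in the Casp1 and Il18 values was not tested. Of the endothelial markers 1 of 6 was tested and not called.

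Of 11 caspase substrates, 2 rose and 0 fell in each knockout against wild type, and between the knockouts 2 were higher and 1 was lower in MyoD-/-. The medians were 0.06 in MyoD-/- and 0.05 in p53-/-. Gas2, an actin-binding protein of growth arrest, had signals of 231 ± 61.7 in wild type, 1533 ± 278 in MyoD-/- cells and 760 ± 30.7 in p53-/-. It rose by 2.43 ± 0.20 in log2 units in MyoD-/- (limma adjusted p = 5.42e-05) and by 1.49 ± 0.20 in p53-/- (adjusted p = 0.0018). Gsn, the actin-severing protein gelsolin, rose in MyoD-/- by 1.91 ± 0.37 (adjusted p = 0.00769), from 3751 ± 2192 to 12838 ± 689, and its p53-/- value was -0.73 (adjusted p = 0.25). Parp1, a DNA repair enzyme read here by a probe set that may detect related sequences, rose in p53-/- by 0.86 ± 0.14 (adjusted p = 0.00501), from 975 ± 81.2 to 1817 ± 47.8. Of 6 tested fibroblast markers, 3 rose in MyoD-/- (Fbln2, Col1a1, Twist2). Col3a1, Col1a2 and Pdgfra were not called there, with log2 differences of -0.24, -0.07 and -0.08. In p53-/-, where Gas2 also rose, 0 of 6 were called. The summed signal of all 10 listed fibroblast genes, tested or not, was 13981 to 16189 in wild type. It was 33795 to 43553 in MyoD-/- cells and 10864 to 13974 in p53-/-. Fbln2 alone had mean signals of 586 in wild type and 20313 in MyoD-/-. The part of fibroblasts in the Gas2 and Gsn differences was not tested.

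Dapk1, the best known relative of Dapk2, had signals of 2920 ± 940 in wild type and 910 ± 393 in MyoD-/-. It fell by 1.56 ± 0.29 in log2 units in MyoD-/- (limma adjusted p = 0.0103), and it was the sole call among 3 tested genes of that list. With the scan day as a block the adjusted p was 0.0537. Stk17b, another kinase of the family, had a log2 difference of -0.63 in MyoD-/- with an adjusted p that rounds to 0.05 and was not called. The lone p53-/- array gave 1236 for Dapk1. In p53-/- the list had 1 tested gene, Calm2, and it was not called. Among the relatives and partners of Aifm1, 0 of 4 tested genes were called in MyoD-/- and 0 of 3 in p53-/-, with medians of -0.12 and -0.11. They include Endog, a mitochondrial nuclease, with log2 differences of -0.24 and -0.21. Casp14, a caspase of the epidermis, was tested as well, with log2 differences of -0.09 in MyoD-/- and 0.15 in p53-/- and no call.

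**Figure D5:**
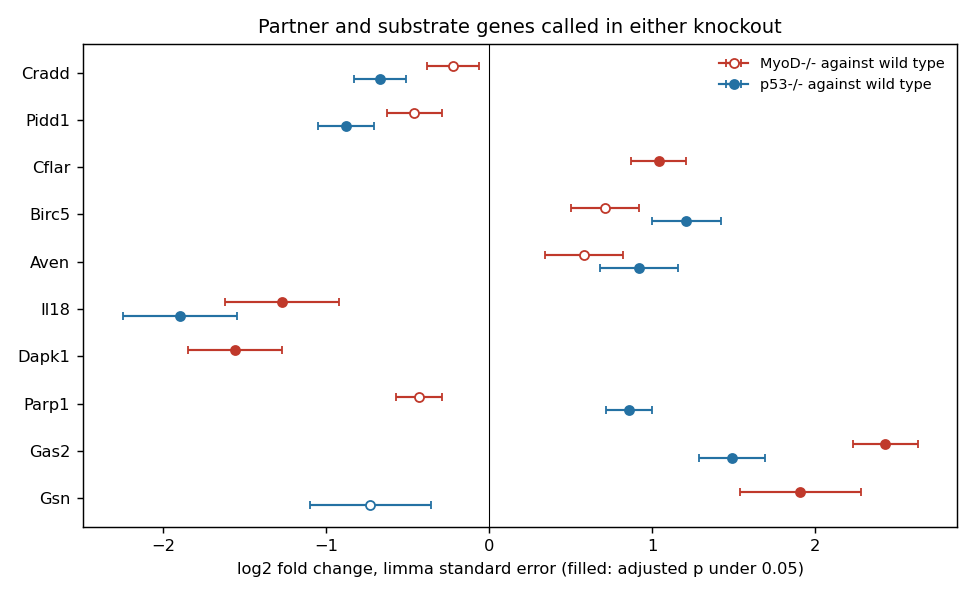
Log2 fold change (x axis) with limma standard errors as bars for the partner and substrate genes called in either knockout (rows), filled where the adjusted p was under 0.05. Cradd and Pidd1 are called lower in p53-/-, Birc5 and Aven higher, and Gas2 is called higher in both, while Cflar and Dapk1 have MyoD-/- values alone because their called probe sets are on U74Bv2.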

How the data were processed

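The authors deposited linear signal intensities, which MAS5 gave for each probe set of an array, per the submitters' processing notes. Its version was not given in the sources used here. No scaling was added to the deposited values. From them log2(signal + offset) was computed, with the 20th percentile of each chip type's signals as the offset (67.19 on U74Av2, 146.1 on U74Bv2, 106.4 on U74Cv2). Probe sets above the 40th percentile on at least 3 arrays entered 1 limma fit per chip type (limma 3.58.1, R 4.3.3, lmFit and eBayes with trend), with genotype as the sole factor. P-values are two-sided, with Benjamini-Hochberg adjustment over 23632 probe sets for MyoD-/- against wild type, 15767 for each comparison with p53-/- and 7865 for the lone U74Bv2 array. The fit was tested on simulated data.

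Precision is limited by the number of arrays, and p-values measure only the spread between these samples, which may be technical. An exact permutation test of 3 arrays against 3 cannot go below p = 0.1. Of the probe sets, 29131 had 1 symbol in the platform annotation, 724 several and 6846 none, and only single symbols were used. The members and gene lists were chosen with earlier results of these data known. Named beyond the members were up to 4 called genes of a list and comparison, the 3 genes nearest in pattern to a called member, and genes that the text describes beside a result. Alternatives changed the offset, filter, scaling, variance trend, blocks and samples. Sequences came from RefSeq, build GRCm38.p6, with all 8 members found. Figures were drawn with matplotlib 3.10.9.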

Additional observations from a re-analysis of the deposited data

How the results depend on the processing

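The 6 member calls kept their direction in all 21 alternatives, and the calls of Dapk2 and Aifm1 were kept in all of them. The number of called member probe sets stayed at 1 in MyoD-/- against wild type. In p53-/- against wild type it was 2 to 3 when 1 array was left out and 3 otherwise. Between the knockouts it was 1 to 2 when 1 array was left out, with 1 without MyoD-/- C and 1 without p53-/- C, and 2 to 3 under the other settings. With the sample letter as a replicate block the counts were 1, 3 and 2, as without it, and the calls over all probe sets were 2166, 1395 and 1799. No strong pairing by letter was seen, since same-letter deviations correlated at -0.12 to 0.13 over 21 pairs. Weak correlations do not show that samples of a letter share nothing.

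Values near 0 that were not called changed sign in 29 cases. On U74Av2 a block for the scan day removes MyoD-/- A in effect, since it was scanned alone there. With it, Casp2 (99049_at) in MyoD-/- became -0.01, and Casp9 (100366_at) became -0.10 in MyoD-/- and -0.08 between the knockouts. Quantile normalization gave -0.02 for Casp8 and -0.03 for Dapk2 between the knockouts, and 0.07 for Casp9 (100366_at) in p53-/-. Median-centred arrays gave -0.03 for Casp8, -0.03 for Casp9 (100366_at) and -0.07 for Dapk2 between the knockouts, and 0.09 for Casp9 (100366_at) in p53-/-. Leaving out 1 array gave ranges of -0.16 to 0.04 for Apaf1, -0.01 to 0.30 for Casp2 (99049_at) and -0.10 to 0.16 for Casp9 (100366_at) in MyoD-/-. In p53-/- the ranges were -0.12 to 0.15 for Casp9 (100366_at) and -0.35 to 0.13 for Casp9 (100368_at). Between the knockouts they were -0.24 to 0.03 for Casp6, -0.05 to 0.17 for Casp8, -0.10 to 0.17 for Casp9 (100366_at), -0.15 to 0.11 for Casp9 (100367_g_at) and -0.18 to 0.33 for Dapk2. Apart from settings built on fewer samples, the cause was not tested.

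Calls over all probe sets were 2515, 1598 and 2045. Leaving out 1 array gave 1524 to 2501, 903 to 1874 and 1315 to 1935. The count moved by over 1.5 times in MyoD-/- against wild type without wild type B (1524), and in p53-/- against wild type without wild type A (903), wild type B (980), p53-/- A (918) or p53-/- C (1009). Between the knockouts it did so without MyoD-/- B (1315), p53-/- A (1356) or p53-/- C (1348). On U74Bv2 the lone p53-/- array gave 289 calls, 43 with the replicate block, 9 with the scan day as a block and 91 to 437 with 1 array left out. The chip lot as a block was not run, since U74Av2 had a single lot U74Bv2 a recorded lot for 1 array, and the wild-type arrays of U74Cv2, which holds no member, a lot of their own. Signals near the offset, such as those of Casp1 on U74Av2, limit what can be said of dim genes.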
